A study of Mus musculus with 30 samples.

Results

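Small leucine-rich proteoglycans were followed through cultured mouse adipocytes exposed to an oxidized lipoprotein or a uremic toxin. The 9 genes were Ogn, Dcn, Lum, Bgn, Fmod, Aspn, Omd, Prelp and Podn, all of which had an Ensembl identifier among the 54232 genes of the count table, and all 9 were among the 20139 genes tested. They were chosen by family membership around Ogn, which was itself selected on its lower CPM in oxLDL + pNaKtide than in oxLDL, so every value of that contrast is given here as a description with no p-value. The other comparisons of Ogn that use the oxLDL or the oxLDL + pNaKtide libraries share libraries with that choice, and no p-value is given for them.

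The material was 3T3-L1, a single mouse preadipocyte line that turns into adipocytes in hormone-containing medium. All 6 groups were kept for 5 days in adipogenic medium, and each held 5 libraries. Control received this medium alone. pNaKtide (0.7 µM) is a cell-permeant peptide taken from the Na,K-ATPase that blocks its signaling through Src kinase. IS is indoxyl sulfate (100 µM), a toxin retained in renal failure, and oxLDL is oxidized low-density lipoprotein (50 µg/mL). IS + pNaKtide and oxLDL + pNaKtide combined the agents at the same doses. The labels give a treatment of 5 days while the methods of the study describe a shorter one, and the labels name adipose tissue as the source of RNA although the samples are cultured 3T3-L1 cells. Nothing states that libraries of a group came from separate cultures, so p-values measure the spread between these libraries, which may be technical.

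Small leucine-rich proteoglycans are secreted proteins built around leucine-rich repeats that bind collagen fibrils and set their thickness and spacing. Many carry chondroitin, dermatan or keratan sulfate chains, and several also bind growth factors of the TGF-β family or toll-like receptors. Decorin (Dcn), biglycan (Bgn) and asporin (Aspn) make up class I; fibromodulin (Fmod), lumican (Lum), prolargin (Prelp) and osteoadherin (Omd) belong to class II, osteoglycin (Ogn) to class III, and podocan (Podn) to class V. In fat they are products mainly of preadipocytes and other stromal cells.

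The genes lie in clusters. On chromosome 13 of GRCm38, Ecm2, Aspn (49544443 to 49567565), Omd (49582462 to 49592822) and Ogn (49608046 to 49624501) follow each other on the plus strand with gaps of 11.7, 14.9 and 15.2 kb. On chromosome 10, Dcn (97479609 to 97518143) and Lum (97565128 to 97572703) stand 47.0 kb apart, followed by Kera and Epyc. On chromosome 1, Prelp (133910304 to 133921414, minus strand) lies 115.8 kb from Fmod (134037254 to 134048277). Bgn is at 73483602 to 73495933 of chromosome X, and Podn at 108014791 to 108096445 of chromosome 4, minus strand. The chromosome 13 genes sit inside Cenpp, a centromere protein gene on the opposite strand that shares 7 exon bases with Aspn and 0 with Ogn or Omd. Prelp shares 350 exon bases with an antisense transcript, Gm15851, which had 2 counts in all libraries. Whether counting used strand is not given in the sources used here, so reads in those shared bases cannot be assigned with certainty.

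The 4 promoters below are shown because Ogn and Aspn, and Bgn and Prelp, formed the pairs whose levels ran closest together. Each is the 250 bases before the RefSeq start of transcription on GRCm38.p6, 5′ to 3′ on the strand of the gene. Capitals mark matches on either strand to the TATA box letters TATAAA, the box named CCAAT, the GC box letters GGGCGG, the AP-1 letters TGANTCA, the E-box letters CANNTG or the C/EBP letters TTGCNNCAA. RefSeq entries were found for 7 of the 9 genes, without Dcn and Lum.
Ogn, chr13:49607765-49608014, plus strand: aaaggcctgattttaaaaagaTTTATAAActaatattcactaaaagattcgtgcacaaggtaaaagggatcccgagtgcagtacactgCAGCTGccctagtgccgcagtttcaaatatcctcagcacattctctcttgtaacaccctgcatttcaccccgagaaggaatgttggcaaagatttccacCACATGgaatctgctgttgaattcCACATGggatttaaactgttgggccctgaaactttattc
Aspn, chr13:49544193-49544442, plus strand: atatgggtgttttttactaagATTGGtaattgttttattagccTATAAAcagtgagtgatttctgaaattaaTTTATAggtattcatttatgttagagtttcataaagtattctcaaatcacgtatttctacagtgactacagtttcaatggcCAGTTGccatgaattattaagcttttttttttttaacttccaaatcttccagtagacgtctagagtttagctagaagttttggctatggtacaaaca
Bgn, chrX:73483351-73483600, plus strand: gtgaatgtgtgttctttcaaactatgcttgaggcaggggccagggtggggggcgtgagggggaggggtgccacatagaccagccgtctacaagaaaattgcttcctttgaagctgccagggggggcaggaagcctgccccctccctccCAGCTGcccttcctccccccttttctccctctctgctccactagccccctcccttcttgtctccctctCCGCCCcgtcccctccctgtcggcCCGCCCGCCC
Prelp, chr1:133921402-133921651, minus strand: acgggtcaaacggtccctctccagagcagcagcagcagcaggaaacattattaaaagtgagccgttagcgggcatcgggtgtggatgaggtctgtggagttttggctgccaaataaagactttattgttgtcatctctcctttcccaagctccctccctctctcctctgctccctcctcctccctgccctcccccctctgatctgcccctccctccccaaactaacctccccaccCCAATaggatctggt

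The pairs differed in base composition. The promoter window of Ogn was 42.0% GC and that of Aspn 30%, against 64.4% for Bgn and 55.6% for Prelp and a median of 52.4% over 32851 promoters. Ogn held 2 TATA-box matches that overlap each other, 227 and 229 bases before the start, and 3 E-box matches. Aspn held 2 TATA-box matches (178 and 207 bases before the start), 1 CCAAT box and 1 E-box. In Bgn there were 3 GC-box matches, the last 2 overlapping, and 1 E-box, and in Prelp 1 CCAAT box 15 bases before the start. Of all promoter windows, 12.4% held TATAAA, 33.8% CCAAT, 32.7% GGGCGG and 66.2% CANNTG. The AP-1 and C/EBP letters, found in 6.7% and 1.7% of windows, had no match in these 4. A match is a description of letters and does not show a bound site.

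Library totals ran from 6945498 to 15159877 counts with a median of 11524210. All 10 adipocyte markers and all 10 preadipocyte and fibroblast markers had counts, with summed levels of 11348 to 17843 and 1954 to 3402 CPM, the counts scaled to a common library size, in single libraries. The 6 macrophage markers summed to 4.27 to 8.47 CPM in single libraries, mostly Cd68 (1569 counts in all) and Lyz2 (518), with Ptprc and Itgam at 0 in every library. The 5 epithelial markers summed to 0.268 to 8.69 CPM, the highest in a pNaKtide library, with Krt5 at 0, and the 5 endothelial markers to at most 0.844 CPM. The 6 smooth muscle and osteochondral markers summed to 22.1 to 33.8 CPM, mostly Sox9 (6862 counts) and Myh11 (3107), with the cartilage proteoglycan Acan at 0. A pair of libraries stood apart from their groups on the first principal component of log2 CPM, which held 64.4% of the variance of 12580 genes: Control replicate 1 scored -25.8 against 6.5 to 29.9 in the rest of the controls, and IS replicate 4 was at 28.2 against -36.7 to -23.2 in the rest of its group. Each thus scored within the range of the other's group. Both were kept as labelled, and whether their labels were exchanged was not tested. Values without both are given where leaving them out changed a call against Control. They carry no p-value and no call is read from them, because the pair was picked on a component that runs with Aspn, Ogn, Bgn and Prelp.

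**Figure D1:**
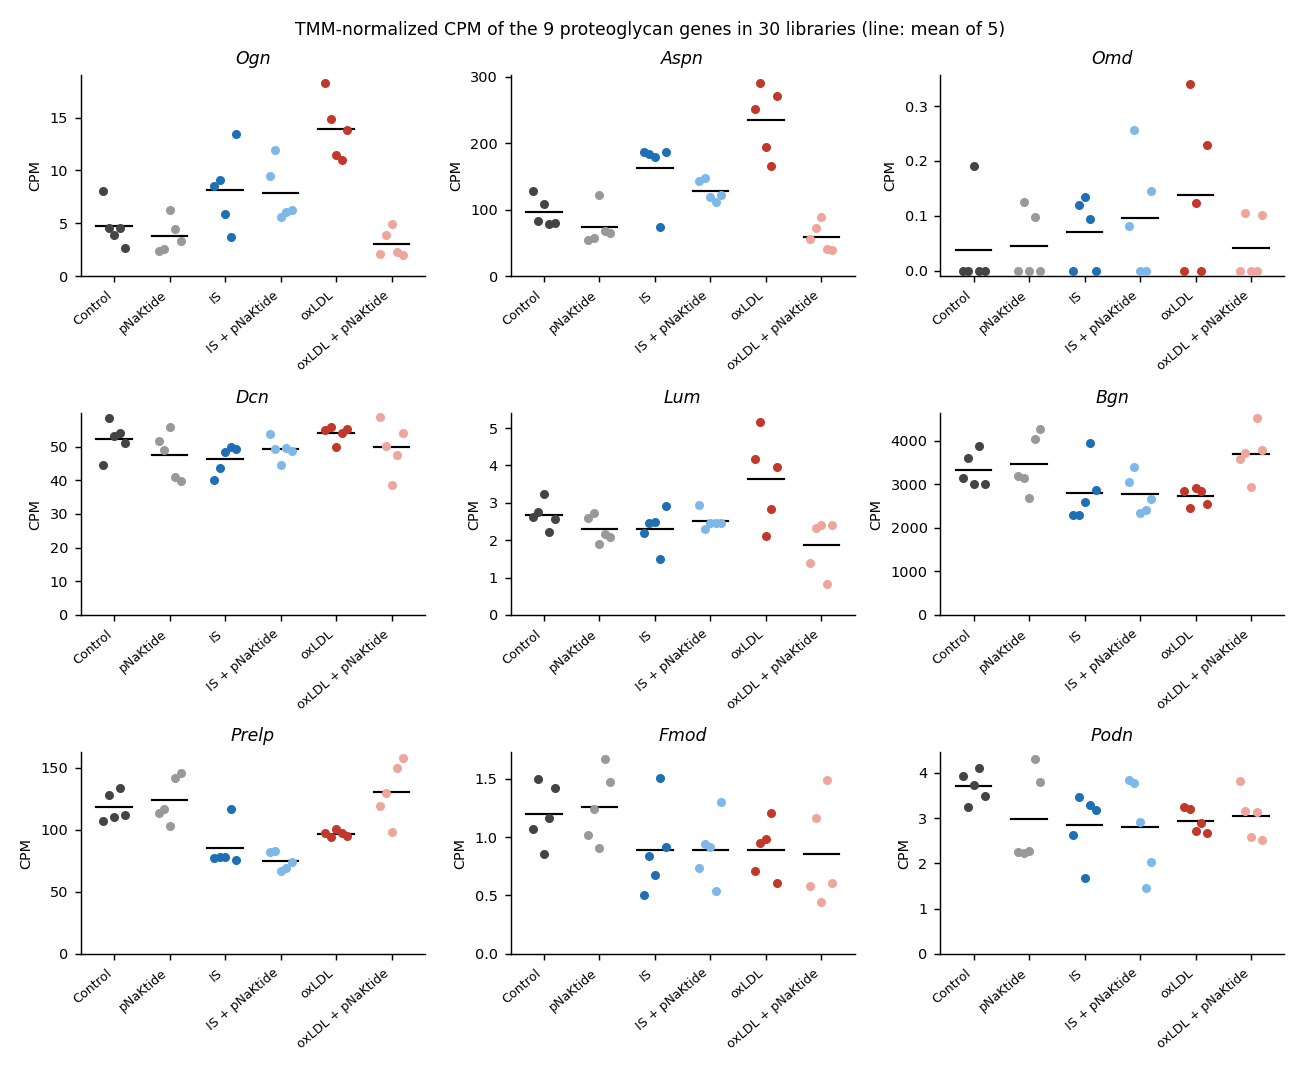
TMM-normalized CPM of each of the 9 genes (y axis, linear) in each of the 30 libraries (points, left to right replicate 1 to 5) by group, with the group mean as a line. Ogn and Aspn were above every control in all oxLDL libraries and below every oxLDL library in oxLDL + pNaKtide, whereas Dcn stayed between 38.6 and 58.8 CPM throughout.

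The 9 genes together took 0.266 to 0.440% of the counts of a library, and Bgn alone 0.241 to 0.414%. On the length-corrected FPKM scale, mean levels in Control fell in the order Bgn (539.5), Aspn (40.2), Prelp (32.4), Dcn (8.84), Ogn (1.83), Lum (1.08), Podn (0.857), Fmod (0.359) and Omd (0.0167). Neighbours whose 5 control libraries overlapped were Aspn and Prelp, Ogn and Lum, and Lum and Podn. In oxLDL no neighbours overlapped, with Aspn at 98.1 and Prelp at 26.4 FPKM. In oxLDL + pNaKtide Prelp (36.4) stood before Aspn (25.2) and their libraries overlapped. Omd had 26 counts in all, 0 in 16 of the 30 libraries, and a count of 0 allows up to 3 counts in a library, so its direction was not read.

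With oxLDL, among the 8 genes other than Ogn, Aspn and Lum were higher than in Control and Prelp was lower at a BH-adjusted p-value of 0.1 (edgeR), while 36.0% of all genes tested were called. Ogn was chosen on these oxLDL libraries and is described by its values. The members' median log2 fold change was 0.05, against 0.04 over all genes. The groups did not overlap for Aspn, above Control, and Bgn and Prelp, below it, where 8.35% of all genes had no overlap; the same held for Ogn, above Control, as a description. In bulk RNA a change in the number of expressing cells and a change in RNA per cell cannot be told apart.

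Asporin, which lacks the glycosaminoglycan chains of its class and binds collagen and TGF-β, had 128, 83.1, 109, 79.0 and 80.2 CPM in the controls and 251, 291, 194, 165 and 272 CPM with oxLDL. Every oxLDL library lay above every control. The log2 fold change of Aspn was 1.29 ± 0.24 (SE, n = 5 and 5; edgeR BH-adjusted p-value 0.00551), and it was called in 10 of 10 fits that left out 1 library (1.2 to 1.42).

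Osteoglycin, a class III member found in bone and connective tissue, had 8.04, 4.58, 3.92, 4.54 and 2.65 CPM in Control and 18.3, 14.9, 11.5, 11 and 13.9 CPM with oxLDL. The lowest oxLDL library was above the highest control, Control replicate 1. The log2 fold change of Ogn was 1.54 ± 0.30 (SE), and 1.83 ± 0.29 without Control replicate 1 and IS replicate 4.

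Lumican, a keratan sulfate proteoglycan, had 2.63, 2.77, 3.25, 2.22 and 2.55 CPM in the controls and 4.16, 5.17, 2.10, 2.82 and 3.96 CPM with oxLDL. The groups overlapped, since oxLDL replicate 3 was below every control. The log2 fold change of Lum was 0.47 ± 0.20 (edgeR BH-adjusted p-value 0.0772). It was called in 4 of 10 fits that left out 1 library and lost without Control replicate 2, 4 or 5 or oxLDL replicate 1, 2 or 5, with adjusted p-values up to 0.298. It was also lost with genes of at least 1 count, with limma-trend on FPKM, with the compared groups only and at a threshold of 0.05.

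Prolargin, which ties collagen to basement membranes, had 107, 128, 111, 134 and 112 CPM in Control and 97.3, 93.8, 101, 97.5 and 95 CPM with oxLDL. All oxLDL libraries were below all controls, and they were spread over a narrow range. Prelp decreased by 0.29 ± 0.12 on the log2 scale (edgeR BH-adjusted p-value 0.0692), a call kept in 5 of 10 fits and lost without Control replicate 2 or 4 or oxLDL replicate 1, 2 or 5. It was also lost with scaling by library size only, at -0.16 ± 0.10. Biglycan, the most abundant member, was 3329 ± 391 CPM in Control and 2726 ± 205 CPM with oxLDL (SD, n = 5), a log2 difference of -0.29 ± 0.14 (SE) that missed the threshold (edgeR BH-adjusted p-value 0.134) although the groups did not overlap. Bgn passed the threshold with the compared groups only. Without Control replicate 1 and IS replicate 4 Bgn was at -0.31 ± 0.13, in a fit that called 48.0% of all genes.

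Decorin, the class I proteoglycan that binds collagen and sequesters TGF-β, was 52.3 ± 5.13 CPM in Control and 54.0 ± 2.39 CPM with oxLDL (SD). Its log2 difference was 0.05, with a 95% interval of -0.16 to 0.26. That reading depends on the fit, since with the trend on GC content and length taken out Dcn was at -0.69 ± 0.22 and called (edgeR BH-adjusted p-value 0.0474). Fmod (-0.45 ± 0.29) and Podn (-0.32 ± 0.22) were not called, and their groups overlapped. Podn passed the threshold with the compared groups only (edgeR BH-adjusted p-value 0.0825).

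**Figure D2:**
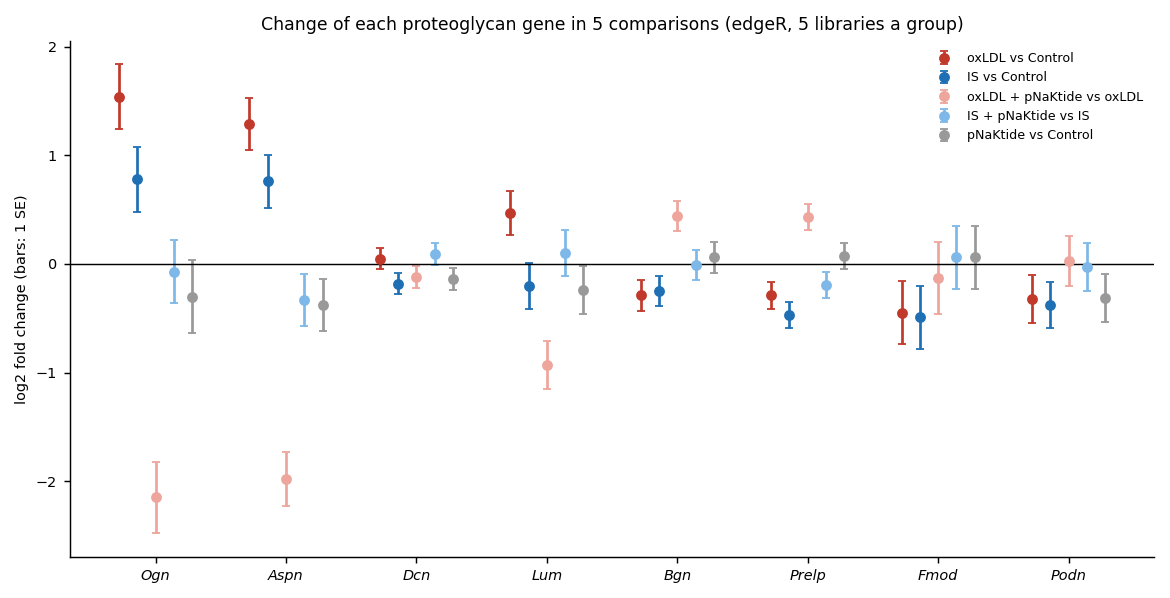
Log2 fold change (y axis) of 8 genes in 5 comparisons, from the edgeR fit, with bars of 1 SE and 5 libraries in each group. Omd is left out for its 26 counts. Ogn and Aspn had the widest span, from 1.54 and 1.29 in oxLDL against Control to -2.15 and -1.98 in oxLDL + pNaKtide against oxLDL, and values for IS + pNaKtide against IS ran from -0.33 to 0.10.

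IS, the uremic toxin, was compared with the same controls, so its values and those of oxLDL share 5 libraries. Aspn was called higher and Prelp lower, 2 of 9 genes where 7.94% of all genes were called, and no member's groups were free of overlap (1.84% of all genes were). The members' median log2 fold change was -0.20, against 0.03 over all genes.

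Aspn had 187, 183, 179, 74.1 and 187 CPM with IS. Of these, 4 libraries were above every control, and IS replicate 4 was below all of them. The log2 fold change was 0.76 ± 0.24 (edgeR BH-adjusted p-value 0.0837), a call present in 2 of 10 fits that left out 1 library, those without Control replicate 1 or IS replicate 4. Without both libraries Aspn was at 1.07 ± 0.24. The call of Aspn was also lost with genes of at least 1 count, with the compared groups only and at a threshold of 0.05. It was lost too with the trend on GC content and length taken out.

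Prelp had 77.4, 78.3, 78.3, 117 and 75.9 CPM with IS, and the high value was again IS replicate 4. It decreased by 0.47 ± 0.12 on the log2 scale (edgeR BH-adjusted p-value 0.0540), and the call was kept in 3 of 10 fits, those without Control replicate 1 or 3 or IS replicate 4. Without both libraries it decreased by 0.65 ± 0.11. The call of Prelp was also lost with the compared groups only and at a threshold of 0.05. Ogn had 8.56, 9.10, 5.84, 3.66 and 13.5 CPM with IS, the lowest in IS replicate 4, and overlapped the controls at a log2 fold change of 0.78 ± 0.30 (edgeR BH-adjusted p-value 0.123). It passed the threshold with scaling by library size only (0.90 ± 0.33, edgeR BH-adjusted p-value 0.0927) and with the filterByExpr filter.

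Leaving out the pair of libraries moved the values with IS, in a fit that called 45.8% of all genes. Ogn was then at 1.24 ± 0.30, Bgn at -0.43 ± 0.14, Fmod at -0.76 ± 0.31 and Dcn at -0.26 ± 0.10. With all libraries Bgn (-0.25 ± 0.14), Fmod (-0.49 ± 0.29), Dcn (-0.18 ± 0.10), Lum (-0.20 ± 0.21) and Podn (-0.38 ± 0.21) were not called.

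pNaKtide alone moved none of the 9 genes past the threshold. In edgeR 0 members were called, where 0.00497% of all genes were. At an unadjusted p-value under 0.05 there were 0 members and 1233 of the 20139 genes, and DESeq2 called 0 members and 33 genes. No member's groups were free of overlap (0.934% of all genes were). Log2 differences from Control ran from -0.38 ± 0.24 for Aspn to 0.07 ± 0.12 for Prelp among the 8 genes other than Omd. Aspn had 54.6, 57.7, 122, 68.1 and 64.1 CPM, with replicate 3 inside the control range and the others below it.

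oxLDL + pNaKtide against oxLDL was the contrast from which Ogn was put forward. Ogn had 2.08, 3.90, 4.98, 2.32 and 2.01 CPM with both agents, all below the lowest oxLDL library, and a log2 difference of -2.15 ± 0.33. Aspn had 55.5, 72.1, 88.2, 41.4 and 38.6 CPM, also all below oxLDL, with a log2 difference of -1.98 ± 0.25. Lum was lower by a log2 difference of -0.93 ± 0.22, at 1.39, 2.32, 2.40, 0.828 and 2.42 CPM, and its groups overlapped at oxLDL replicate 3.

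Bgn and Prelp lay the other way. Bgn was 3569.9, 3722, 2934, 4517 and 3777 CPM with both agents, all above the highest oxLDL library (2915 CPM), a log2 difference of 0.44 ± 0.14. Prelp was 119, 129, 97.8, 149 and 158 CPM, overlapping oxLDL only at replicate 3, with a log2 difference of 0.43 ± 0.12. Dcn (-0.12 ± 0.10), Fmod (-0.13 ± 0.33) and Podn (0.03 ± 0.23) differed by less than 1.5 times their SE. In all, 2 members were past the threshold upward and 3 downward where 48.3% of all genes were called, and 3 had no overlap where 28.4% of all genes had none. Nothing is read from these counts, since this contrast chose Ogn. Scaling by library size alone, which moved the median of all genes in this contrast from -0.09 to -0.30, left Bgn (0.21 ± 0.12) and Prelp (0.20 ± 0.10) short of the threshold and put Dcn (-0.35 ± 0.09) past it.

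The contrast between oxLDL + pNaKtide and Control left 0 of 9 members called by edgeR, where 5.20% of all genes were called. At an unadjusted p-value under 0.05 there was 1 member beside 3468 of the 20139 genes, and DESeq2 called 1 member beside 1414 genes. Aspn was that member, at 59.1 ± 21 CPM against 95.8 ± 21.7 CPM in Control (SD) and a log2 difference of -0.69 ± 0.24 (edgeR BH-adjusted p-value 0.125). It was called lower in 7 of 12 alternatives to that fit, DESeq2 among them. No member was free of overlap, against 4.03% of all genes. Ogn was at 3.06 ± 1.32 CPM against 4.75 ± 2.00 CPM.

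IS + pNaKtide against IS called 0 of 9 members in edgeR, where 0% of all genes were called and 0.834% had no overlap between groups. At an unadjusted p-value under 0.05 there were 0 members and 564 of the 20139 genes, and DESeq2 called 0 members and 11 genes. Ogn was 7.86 ± 2.73 CPM with both agents and 8.13 ± 3.70 CPM with IS (SD), a log2 difference of -0.07 with a 95% interval of -0.67 to 0.52. Aspn was 129 ± 15.8 CPM and 162 ± 49.2 CPM, a log2 difference of -0.33 with an interval of -0.82 to 0.16. A p-value that misses the threshold does not show that these groups were alike.

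Against Control, IS + pNaKtide called 1 member, Prelp, where 0.358% of all genes were called. Prelp had 82.2, 83.1, 66.9, 68.9 and 73.8 CPM, all below the lowest control, and was the single member with no overlap (3.79% of all genes had none). It decreased by 0.66 ± 0.12 on the log2 scale (edgeR BH-adjusted p-value 0.0271), with the call kept in 7 of 10 fits and lost without Control replicate 2 or IS + pNaKtide replicate 3 or 5. Ogn, at 9.49, 11.9, 5.58, 6.06 and 6.29 CPM, was above the control mean in 5 of 5 libraries with a log2 fold change of 0.71 ± 0.31 that was not called (edgeR BH-adjusted p-value 0.214). Without Control replicate 1 and IS replicate 4, Ogn was at 0.99 ± 0.30 and Aspn at 0.55 ± 0.23 (0.42 with all libraries), in a fit that called 32.7% of all genes.

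How pNaKtide's difference depended on the agent was taken as a difference of log2 differences, which includes the contrast that chose Ogn and is given as values. Compared with pNaKtide in otherwise untreated cells, the change beside oxLDL was more negative by -1.84 ± 0.48 for Ogn and -1.60 ± 0.34 for Aspn, and 2 of 9 members were past the threshold where 24.6% of all genes were. Compared with its change beside IS, it differed by -2.07 ± 0.44 for Ogn, -1.65 ± 0.34 for Aspn, -1.04 ± 0.30 for Lum and 0.62 ± 0.17 for Prelp, with 4 of 9 members past the threshold where 29.3% of all genes were. Nothing is read from these counts either.

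Across the 30 libraries the log2 CPM of Ogn and Aspn had a Pearson r of 0.94, the highest for Ogn among 12579 genes whose log2 CPM averaged 1 or more. The next genes were the iron exporter Slc40a1 (0.93), the heparin-binding growth factor Ptn (0.93), Arl14ep (0.93) and Samd9l (0.92). Bgn and Prelp had an r of 0.86, Aspn and Prelp -0.71, Ogn and Bgn -0.58, and Ogn and Dcn 0.05. These are descriptions over libraries that share groups, depth and scaling. The same libraries' scores on the first principal component had an r of -0.93 with Aspn, -0.86 with Ogn, -0.62 with Lum, 0.81 with Bgn, 0.76 with Prelp and 0.03 with Dcn.

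Base composition moved with these directions. The longest transcript was 34.3% GC for Aspn, 36.3% for Ogn, 37.4% for Dcn and 41.9% for Lum, and 51.2% for Bgn, 53.7% for Fmod, 53.8% for Prelp and 56.3% for Podn. Over the genes averaging a log2 CPM of 1 or more, the median log2 fold change with oxLDL was 0.63 in 688 genes under 40% GC and -0.31 in 2644 genes of at least 55% GC. For oxLDL + pNaKtide against oxLDL the same bins had medians of -0.82 and 0.36, and for IS 0.45 and -0.21. Ogn and Aspn were past the upper quartile of their bin with oxLDL (0.82), and Dcn was below the lower quartile (0.41). The list genes and markers described below were read without taking this trend out.

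**Figure D3:**
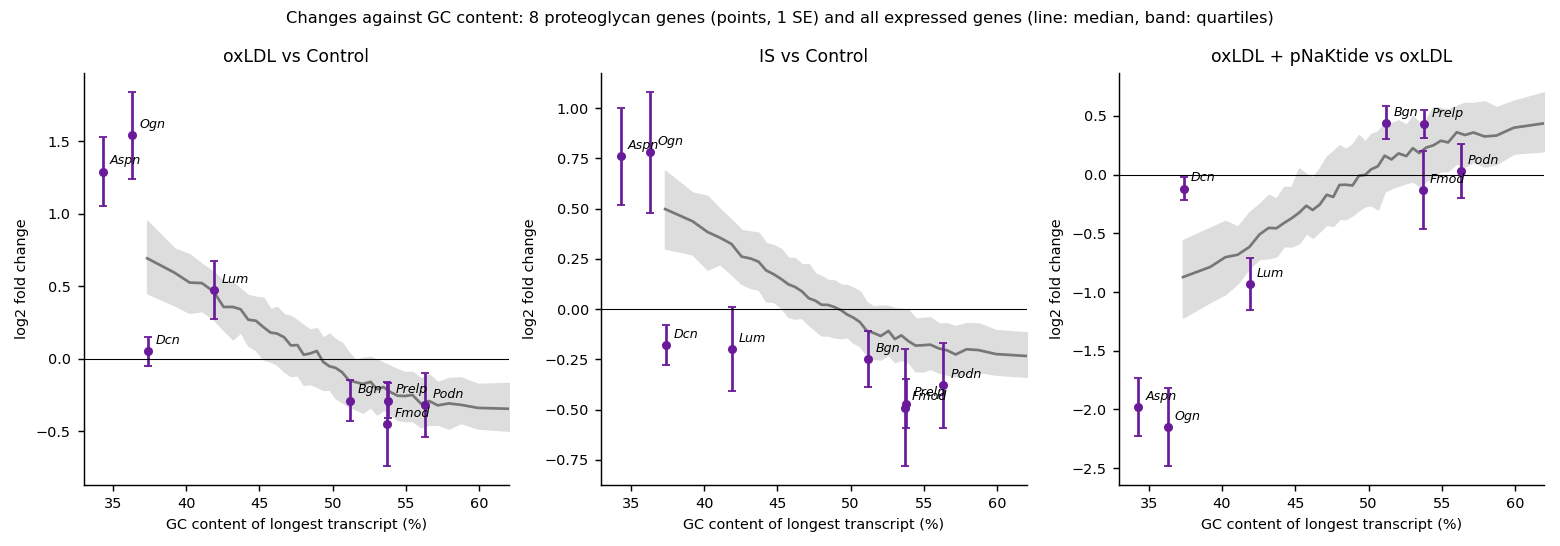
Log2 fold change (y axis) against GC content of the longest transcript (x axis, percent) in 3 comparisons: 8 genes (points, bars of 1 SE) and the running median and quartiles of genes averaging a log2 CPM of 1 or more (line and band). Aspn and Ogn lay farther from 0 than the low-GC end of the band in each panel, and Dcn, at 37.4% GC, lay nearer 0 or on the other side of it.

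A fit with the trend on GC content and length taken out of each library was set beside the one above. Ogn then stood at 0.87 ± 0.26 with oxLDL, and Aspn at 0.58 ± 0.12 (edgeR BH-adjusted p-value 0.00913), both smaller than before. Dcn, as given above, turned from 0.05 to -0.69. Lum (0.11 ± 0.18, edgeR BH-adjusted p-value 0.753) and Prelp (-0.11 ± 0.09, edgeR BH-adjusted p-value 0.459) were no longer called with oxLDL. With IS, Aspn was at 0.22 ± 0.12 (edgeR BH-adjusted p-value 0.320) and Prelp at -0.37 ± 0.09 (edgeR BH-adjusted p-value 0.0439). In oxLDL + pNaKtide against oxLDL, Ogn was at -1.37 ± 0.29, Aspn at -1.16 ± 0.12, Bgn at 0.48 ± 0.13, and Dcn turned from -0.12 to 0.83 ± 0.23. The part of the trend in the members' changes that is technical was not tested.

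**Figure D4:**
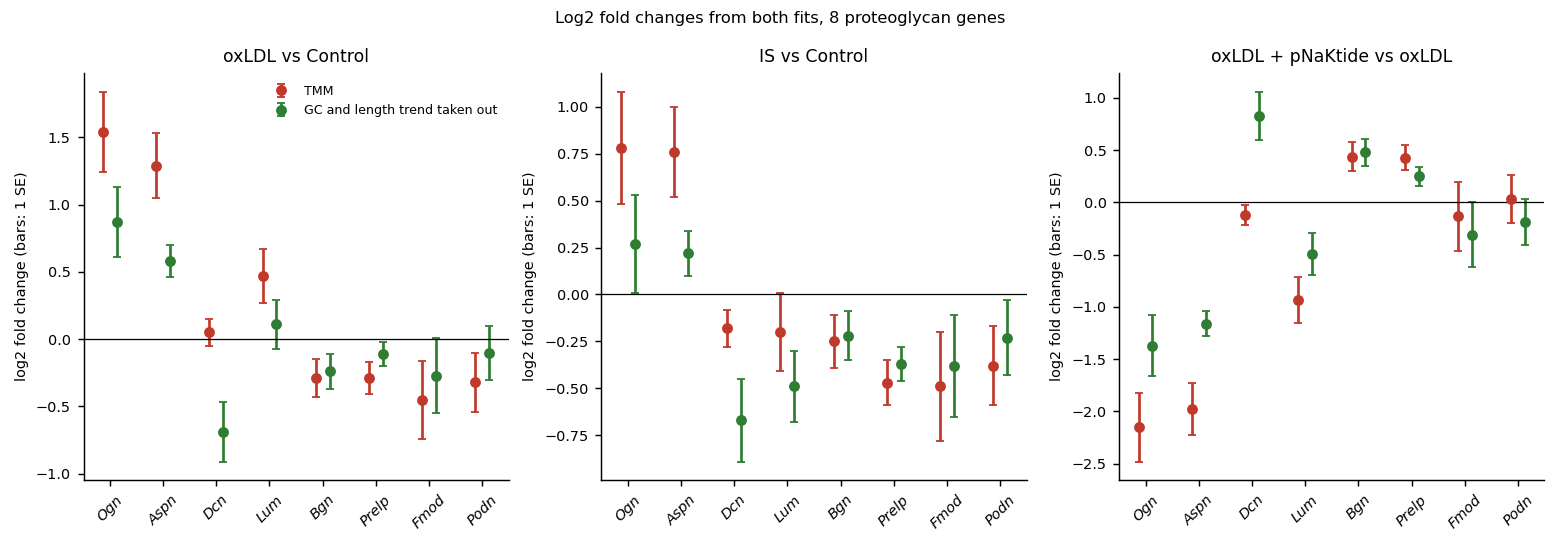
Log2 fold change (y axis, bars of 1 SE) of 8 genes in 3 comparisons from the fit with TMM scaling and from the fit with the trend on GC content and length taken out. Ogn moved from 1.54 to 0.87 and Dcn from 0.05 to -0.69 with oxLDL, while Bgn moved from -0.29 to -0.24.

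Neighbours in the gene clusters were read next. Kera, which encodes the corneal proteoglycan keratocan and follows Lum on chromosome 10, had 138 counts in all and was 0.606 ± 0.168 CPM with oxLDL against 0.300 ± 0.137 CPM in Control (SD), a log2 fold change of 1.04 ± 0.40 (edgeR BH-adjusted p-value 0.0509). Ecm2, next to Aspn on chromosome 13, had 193 counts and a log2 difference of -0.01 ± 0.36. Cenpp, which spans Aspn, Omd and Ogn on the other strand, had 388 counts at a mean of 1.08 CPM and was higher with oxLDL by 0.75 on the log2 scale (edgeR BH-adjusted p-value 0.0683).

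**Figure D5:**
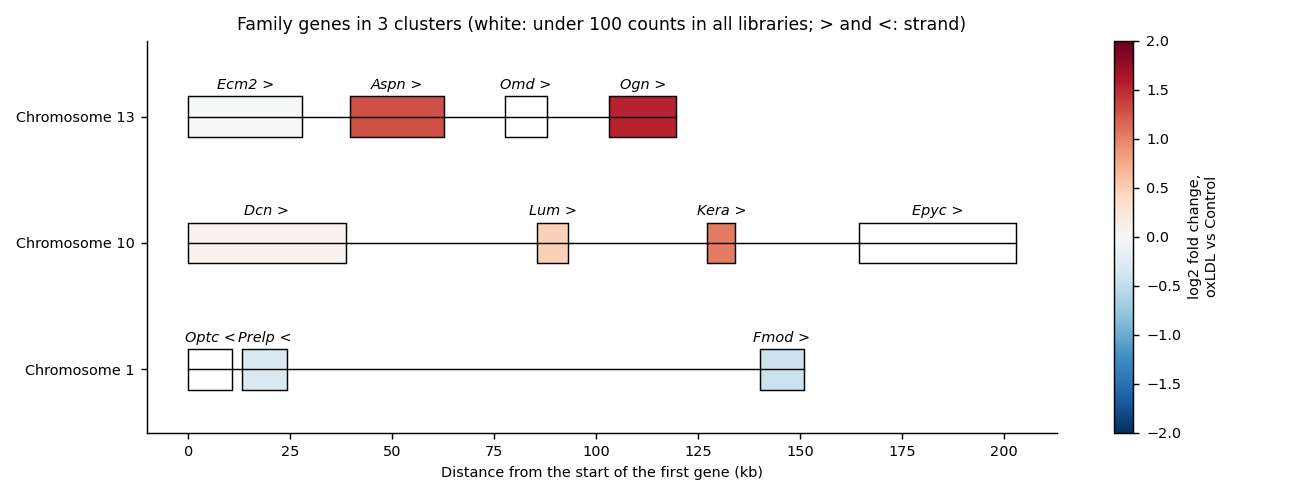
Family genes in the clusters of chromosomes 1, 10 and 13, drawn to scale by distance from the start of the first gene (x axis, kb) and colored by log2 fold change in oxLDL against Control. Ogn (1.54) and Aspn (1.29) lay on either side of Omd, which is white for its 26 counts, and Ecm2 in the same cluster was at -0.01.

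Of the 8 other family genes, all tested, Kera was called with oxLDL and Chad with IS, where 36.0% and 7.94% of all genes were called. Chad, which encodes the cartilage protein chondroadherin, had 25 counts over the IS libraries and 2 over the controls, and since the control count is under the floor of 3 no fold is given. Tsku, a secreted inhibitor of several growth factors and the most abundant of the 8 with 15723 counts, was at -0.08 ± 0.09 with oxLDL.

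The enzymes that build the sugar chains went both ways with oxLDL. Of 22 tested genes for the linker and for chondroitin and dermatan sulfate chains, 6 were higher and 5 lower, beside 36.0% of all genes called in either direction, with a median log2 fold change of -0.03 against 0.04 over all genes. The gene of the dermatan sulfate epimerase-like protein, Dsel, was higher (0.98 ± 0.20, edgeR BH-adjusted p-value 0.00700) and so was the chain-initiating Csgalnact2 (0.74 ± 0.16, edgeR BH-adjusted p-value 0.00782). The sulfotransferase Chst12 (-0.56 ± 0.13, edgeR BH-adjusted p-value 0.00783) and the polymerizing factor Chpf (-0.54 ± 0.15, edgeR BH-adjusted p-value 0.0121) were lower. Dsel and Csgalnact2 were 40.8 and 37.4% GC, and Chst12 and Chpf 56.6 and 58.0% GC. With IS, 2 were higher (Dsel and Csgalnact2) and 1 lower (Chst12), beside 7.94% of all genes. Of 7 keratan sulfate genes tested, Fut8 was higher with oxLDL, and St3gal3 and Chst1 were lower with oxLDL and with IS. In oxLDL + pNaKtide against oxLDL, Dsel differed by -1.60 ± 0.22 and Chst12 by 0.79 ± 0.13.

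The collagens and matrix partners called with oxLDL or IS against Control were all lower. With oxLDL 0 of 16 tested were higher and 4 lower (36.0% of all genes called), and with IS 0 were higher and 6 lower (7.94%). The median log2 fold changes were -0.18 and -0.41, against 0.04 and 0.03 over all genes. Col6a2 and Col6a1, chains of the type VI collagen that biglycan and decorin bind, decreased by 0.64 ± 0.16 and 0.54 ± 0.14 with oxLDL (edgeR BH-adjusted p-values 0.00894 and 0.0104). These chains were 55.2 and 56.7% GC, and genes of at least 55% GC had a median of -0.31 with oxLDL. The part of that trend in the collagen values was not tested. Col3a1, a fibrillar collagen, was 1874 ± 265 CPM with IS against 2488 ± 132 CPM in Control (edgeR BH-adjusted p-value 0.0487). In oxLDL + pNaKtide against oxLDL, where 3 were past the threshold upward and 4 downward beside 48.3% of all genes, Col6a2 differed by 0.78 ± 0.16 and Col12a1 by -1.0 ± 0.21.

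Among 12 proteases and their helpers tested, 3 were higher and 2 lower with oxLDL, beside 36.0% of all genes called. Adamts5, which cleaves proteoglycans, was higher by 0.51 ± 0.14 (edgeR BH-adjusted p-value 0.0117) and Pcolce, an enhancer of procollagen processing, was lower by a log2 difference of -0.59 ± 0.17 (edgeR BH-adjusted p-value 0.0146). Of 13 ligands and receptors tested, 1 was higher and 1 lower with oxLDL: the biglycan receptor Tlr4 was higher (0.61 ± 0.18, edgeR BH-adjusted p-value 0.0167), and Tgfb1, a ligand of decorin and asporin, was lower (-0.76 ± 0.19, edgeR BH-adjusted p-value 0.00945). With oxLDL + pNaKtide against oxLDL these differed by -1.09 ± 0.19 and 1.04 ± 0.19. Of 6 large matrix proteoglycans tested, Vcan, which encodes versican, differed by -0.66 ± 0.18 in oxLDL + pNaKtide against oxLDL.

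Cell type markers were read in the same comparisons, beside 36.0% of all genes called with oxLDL and 7.94% with IS. With oxLDL 1 of 10 adipocyte markers was higher (Cd36) and 2 were lower (Cebpa and Cidec), and of 10 preadipocyte and fibroblast markers Postn was higher and 3 were lower, Dlk1 and Vim among them. Summed adipocyte markers were 13221 to 16159 CPM in Control, 12914 to 16910.3 CPM with oxLDL and 15333 to 16919 CPM with oxLDL + pNaKtide. Summed preadipocyte and fibroblast markers were 2228 to 3037, 2121 to 2566 and 2417 to 3402 CPM in the same groups. In oxLDL + pNaKtide against oxLDL, where 48.3% of all genes were called, 4 adipocyte markers were higher and 1 lower (Cd36), and 4 preadipocyte and fibroblast markers were higher and 3 lower, Postn and Pdgfra among them. With IS, 1 adipocyte marker was higher and 4 lower, at sums of 11348 to 13558 CPM, and of the preadipocyte and fibroblast markers 0 were higher and 1 lower (Ly6a), at sums of 1954 to 2958 CPM. The part of these markers in the values of the proteoglycan genes was not tested.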

How the data were processed

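RNA of 30 samples of 3T3-L1 cells was sequenced as paired-end stranded mRNA libraries. Per the methods of the study and the submitters' processing notes, the authors trimmed reads with Trimmomatic 0.38, aligned them to GRCm38 with HISAT2 2.1.0 and counted them per gene, giving the deposited counts, which are neither normalized nor pooled. The deposited FPKM values are normalized counts per kilobase scaled to depth by the authors. Which annotation, strand setting and gene lengths went into both is not given in the sources used here. Deposited normalized counts, equal to the counts times 1 constant per library, were not used.

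Members and lists were chosen with earlier results of these data known. The 9 members were named in every comparison, at most 2 genes per list and direction by smallest adjusted p, and the 5 genes with the highest r with Ogn. Of 54232 genes, 54079 had a symbol. Genes whose summed count exceeded 14 were fitted in 6 groups with edgeR 4.0.16 (TMM, robust quasi-likelihood, R 4.3.3), with p-values adjusted by the BH method over all genes and a threshold of 0.1. The SE was the estimate divided by the root of F, and 95% intervals used 24 residual degrees of freedom. CPM were TMM-normalized, and log2 CPM used a prior count of 2. Values were checked with DESeq2 1.42.0, limma 3.58.1 on log2(FPKM + 1) and a trend on GC content and length fitted with mgcv 1.9.3. Model functions were tested on simulated data. GENCODE annotation and RefSeq promoters of GRCm38 gave positions. No libraries of a group were duplicates (lowest chi-square per degree of freedom 1.30 over 60 pairs), and the labels give no batch. Total counts per library set counting precision.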

Additional observations from a re-analysis of the deposited data

Results flagged for a closer look

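In 5 of 54 sets of 5 libraries (9 genes in 6 groups) the highest or lowest library had a gap to its neighbour above Dixon's critical value for the share of the group's log2 range, where chance alone gives about 1 in 20. Both values of IS replicate 4, which also stood apart on the first principal component, were among them: Aspn at 74.1 CPM where the others were 179 to 187 CPM, and Prelp at 117 CPM where the others were 75.9 to 78.3 CPM. Aspn in pNaKtide replicate 3 was 122 CPM against 54.6 to 68.1 CPM in the others. Lum in IS + pNaKtide replicate 1 was 2.94 CPM against 2.31 to 2.46 CPM, from 36 counts. Omd in Control replicate 3 was 0.191 CPM, from 2 counts, where the others were at 0.

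The difference made by pNaKtide is listed for 4 genes because its fitted change with the agent beside it passed the threshold. No test is read from it, since it contains the contrast from which Ogn was put forward. Beside oxLDL compared with no agent, the log2 difference was -1.84 for Ogn and -1.60 for Aspn. Beside oxLDL compared with IS it was -2.07 for Ogn, -1.65 for Aspn, -1.04 for Lum and 0.62 for Prelp. With the trend on GC content and length taken out, Ogn compared with no agent (-1.12) and Lum compared with IS (-0.64) would not be listed. Dcn compared with no agent (0.90) and Bgn compared with IS (0.50) would be. Bgn compared with IS would be listed in 8 of 12 alternatives.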

How the results depend on the processing

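Of 893 member log2 fold changes under alternatives that kept each library or left out a fixed pair, 818 kept their direction and side of the threshold. Dcn reversed with the trend on GC content and length taken out, to -0.69 (oxLDL against Control) and 0.83 (oxLDL + pNaKtide against oxLDL). The first was past the threshold, and the second is given as a value. The trend taken out for Dcn averaged -0.22 in Control, 0.49 in oxLDL and -0.45 in oxLDL + pNaKtide on the log2 scale. Whether that trend is technical was not tested. A further 16 changed sign with neither value called.

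Members called with oxLDL, 4 with Ogn counted, numbered 2 with more than 14 counts asked in every library, where 5 members remain tested, and 2 at a threshold of 0.05. All genes called went from 7259 to 6704 and 5453 in these settings. With IS, 2 became 1 with genes of at least 1 count or the trend taken out, and 0 at a threshold of 0.05 or with the compared groups only. It became 6 without the pair of libraries that stood apart, and 3, Ogn added, with library size only or filterByExpr. All genes called went from 1599 to 546, 817, 130, 0, 9140, 2541 and 2490, in the order of these settings. For oxLDL + pNaKtide against oxLDL, 5 became 3 with more than 14 counts in every library, while all genes called went from 9722 to 8304. For oxLDL + pNaKtide against Control, 0 became 1, Aspn, in 7 of 12 alternatives. These were DESeq2, library size only, more than 14 counts in every library, filterByExpr, the replicate block, limma-trend and the trend taken out. All genes called went from 1047 to between 1414 and 1968 in these settings. For IS + pNaKtide against Control, 1 became 2 with the compared groups only and 3 without the pair. All genes called went from 72 to 1295 and 6526. For pNaKtide beside oxLDL minus without, 2 became 1 with more than 14 counts in every library, 4 with filterByExpr, 4 with the replicate block and 5 without the pair. All genes called went from 4951 to 5367, 5625, 5996 and 8054. No call is read from the fits without the pair.

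Counts that include Ogn in comparisons with oxLDL libraries are printed as values, and no stability is read from them. Leaving out 1 library gave 2 to 5 members with oxLDL beside 4966 to 9246 of all genes, and 0 to 5 with IS beside 15 to 6901. With pNaKtide it gave 0 to 0 beside 0 to 2 genes. For oxLDL + pNaKtide against oxLDL there were 5 to 5 beside 8348 to 9806 genes. For IS + pNaKtide against IS there were 0 to 0 beside 0 to 1. Against Control, oxLDL + pNaKtide gave 0 to 1 beside 505 to 1313, and IS + pNaKtide 0 to 2 beside 2 to 5394. The differences beside oxLDL gave 2 to 4 beside 2116 to 7515 (minus without) and 4 to 5 beside 3790 to 6616 (minus with IS). Same-numbered libraries of different groups had deviations correlating at -0.66 to 0.79 over 75 pairs, 37 of them above 0.1. Of 30 libraries, 13 were closest to their own number. These values do not settle whether the numbers pair samples. With a replicate block 3423 genes were called with IS, against 1599 without it. For IS + pNaKtide against Control the block gave 1338 genes, against 72. Over all genes tested, library size only called 4963 higher and 2276 lower with oxLDL, against 3637 and 3622 with TMM. Depth limits Omd, Fmod and Lum most, at 26, 336 and 921 counts in all.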
